A study of Homo sapiens with 14 samples.

Results

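RYR2, CACNA1H and 8 related genes encode the pore-forming proteins through which calcium enters the cytosol, either from the endoplasmic reticulum or from outside the cell. They were followed by RNA sequencing in cultures of the 293 Flip-In T-REx line, which derives from human embryonic kidney and has a fixed site for a transgene. The 10 genes are RYR1, RYR2, RYR3, ITPR1, ITPR2, ITPR3, CACNA1H, CACNA1G, CACNA1C and CACNA1A, of 22410 genes in the files. They were chosen by function, but RYR2 and CACNA1H stand at the head of the set because earlier results of these data had them high in SA2Q cells against ctrl cells. Values of that contrast are therefore a description without a test, and RYR2 and CACNA1H were tested only in comparisons that hold neither ctrl nor SA2Q libraries. A gene's values are those of its deposited transcript entry with the highest mean FPM (fragments scaled to the library total). All 10 passed the filter on low counts.

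The series was set up to look for off-target RNA editing by SNAP-ADAR enzymes. In these fusions a SNAP tag, which bonds to a chemically modified guide RNA, carries the deaminase domain of ADAR or of ADARB1, enzymes that turn adenosine into inosine. There were 7 groups of 2 libraries. SA2Q and SA2Q+gRNA cells carried the SNAP-ADAR2Q gene with the change E403Q, without and with a guide RNA. SA2+gRNA cells carried SNAP-ADAR2 and a guide RNA. SA1Q and SA1Q+gRNA cells carried SNAP-ADAR1Q with the change E406Q, without and with a guide RNA, and SA1+gRNA cells carried SNAP-ADAR1 and a guide RNA. The ctrl cells held an empty vector and got no guide RNA by their label. There was 1 line per transgene, so an enzyme and a line cannot be told apart. Whether a line was 1 clone, how the transgene was induced and what the guide RNA targeted are not stated in the labels used here. The design text names 2 independent experiments, so p-values measure the spread between these.

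Ryanodine receptors (RYR1, RYR2, RYR3) and inositol trisphosphate receptors (ITPR1, ITPR2, ITPR3) are tetrameric channels of the endoplasmic or sarcoplasmic reticulum that release stored calcium. RYR1 is known from skeletal muscle, RYR2 from heart muscle, where mutations cause an inherited arrhythmia, and RYR3 is more widely but weakly expressed. The CACNA1 genes encode the pore subunits of voltage-gated channels of the plasma membrane. CACNA1H and CACNA1G form T-type channels that open near the resting potential, CACNA1C the L-type channel of heart and smooth muscle, and CACNA1A the P/Q-type channel of nerve terminals. Cells that do not contract release calcium mainly through inositol trisphosphate receptors.

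Promoters are shown for RYR2, RYR1 and CACNA1A, whose levels set libraries apart below; CACNA1H, which does so too, was not matched. Each sequence holds the 250 bases before the RefSeq gene start on GRCh38.p14, written 5′ to 3′ on the gene's strand, and 7 of the 10 members had an entry. Capitals mark matches to GGGCGG, the core of a GC box, and to CCAAT, on either strand. The RYR2 window is chr1:237041934-237042183 (plus strand), the RYR1 window chr19:38433441-38433690 (plus strand) and the CACNA1A window chr19:13506480-13506729 (minus strand).
RYR2: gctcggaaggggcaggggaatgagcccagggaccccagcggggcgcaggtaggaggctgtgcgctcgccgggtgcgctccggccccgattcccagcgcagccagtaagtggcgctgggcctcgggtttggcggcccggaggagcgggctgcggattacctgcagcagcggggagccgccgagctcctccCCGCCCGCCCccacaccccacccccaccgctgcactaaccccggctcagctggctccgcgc
RYR1: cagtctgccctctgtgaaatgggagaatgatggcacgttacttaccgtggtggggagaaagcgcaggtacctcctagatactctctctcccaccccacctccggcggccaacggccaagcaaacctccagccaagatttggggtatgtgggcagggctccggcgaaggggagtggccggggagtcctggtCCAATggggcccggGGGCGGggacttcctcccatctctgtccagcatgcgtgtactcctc
CACNA1A: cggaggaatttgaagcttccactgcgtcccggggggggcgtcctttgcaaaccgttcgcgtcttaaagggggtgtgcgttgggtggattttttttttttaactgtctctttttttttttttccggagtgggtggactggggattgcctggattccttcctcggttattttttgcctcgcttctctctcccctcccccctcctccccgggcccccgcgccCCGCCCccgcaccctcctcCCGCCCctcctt
The RYR2 window has a GC content of 75.2%, the RYR1 window 62.4% and the CACNA1A window 58.8%, against a median of 58.0% over 35116 promoters of the same length. RYR2 has GC boxes beginning 61 and 57 bases before the start, which overlap each other and both lie on the minus strand. RYR1 has a GC box at 46 bases and CCAAT at 60 bases before the start. CACNA1A has GC boxes at 31 and 12 bases, both on the minus strand. GGGCGG or its reverse was present in 42.6% of all promoters and CCAAT or its reverse in 32.0%. TATAAA, searched on both strands and present in 10.7% of promoters, and TGACGTCA, present in 1.65%, had no match in these 3 windows. A match of letters is a description of the window and not a binding site.

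Library totals ran from 43.0 to 130.1 M fragments. ADAR, which the SA1 transgene carries in part, stood at 1085 to 1603 CPM (counts scaled to the TMM library size) in the 6 SA1 libraries, against 297 to 340.1 CPM in the other 8. ADARB1 stood at 939.5 to 1163 CPM in the 6 SA2 libraries, against 25.5 to 37.2 CPM in the other 8, so both followed the labels. Of 6 markers of the line, all 6 averaged at least 1 CPM. On the first principal component, which held 24.7% of the variance, SA1Q+gRNA replicate 1 lay at -43.9 and ctrl replicate 1 at -39.7, with the other 12 libraries at 0.3 to 13.7. These 2 are called the libraries that stood apart, and results that rest on them are given with and without them. All counts of SA1+gRNA replicate 2 were even numbers, against 47.7% to 48.7% of the counts in the other libraries, and halving them changed no call for a member.

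The inositol trisphosphate receptors were the most abundant members per transcript length. On the FPKM scale (fragments scaled to transcript length and library total), ITPR3 averaged 13.8 ± 1.31 (SD over the 14 libraries) and was above every other member in all 14 libraries. ITPR1 followed at 3.03 ± 0.321 FPKM and ITPR2 at 2.38 ± 0.305 FPKM. ITPR1 exceeded ITPR2 in 14 of 14 libraries, although their ranges over libraries overlapped. Among the voltage-gated channels CACNA1H was highest, with 1.85 ± 0.296 FPKM, and it lay below ITPR2 in 12 of 14 libraries. RYR2 was the leading ryanodine receptor with 0.816 ± 0.217 FPKM, below CACNA1H in 14 of 14 libraries. CACNA1C, at 0.230 ± 0.0450 FPKM, and CACNA1G, at 0.198 ± 0.0351 FPKM, overlapped, with CACNA1C higher in 10 libraries. RYR3, at 0.0685 ± 0.0142 FPKM, and RYR1, at 0.0684 ± 0.0272 FPKM, did not differ beyond their spread, and RYR3 was higher in 9 libraries. CACNA1A was last with 0.0386 ± 0.0690 FPKM, an SD larger than its mean. The level of a transcript in bulk RNA does not separate fewer expressing cells from less RNA per cell.

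**Figure D1:**
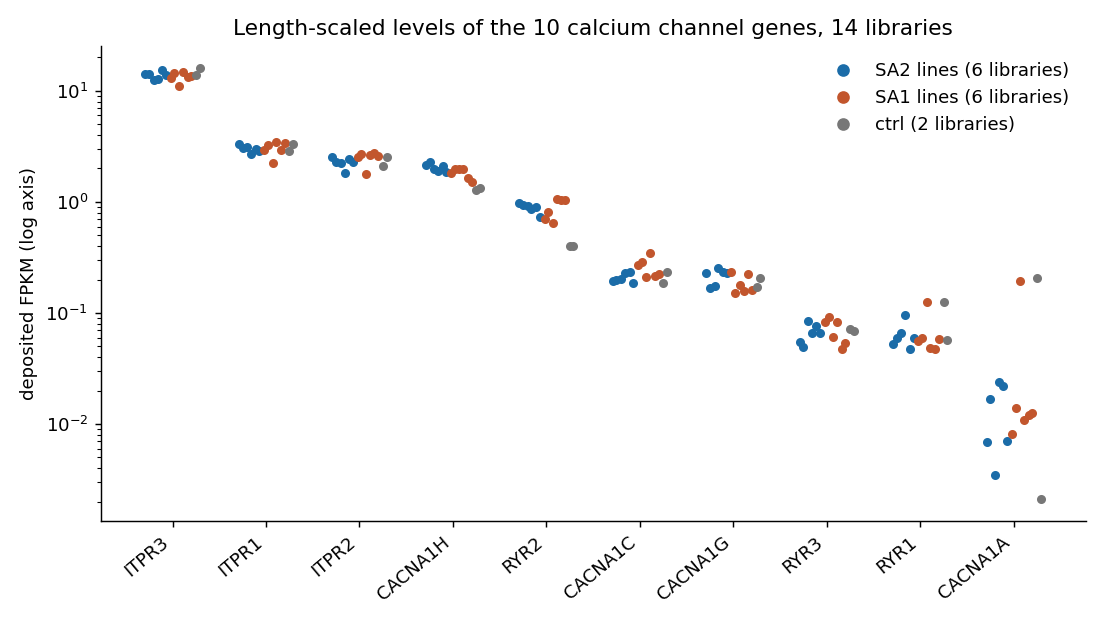
FPKM of the 10 calcium channel genes in the 14 libraries on a log axis, 1 point per library. ITPR3 averaged 13.8 FPKM and CACNA1A 0.0386 FPKM, and CACNA1A has 2 libraries far above the other 12.

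RYR2 (NM_001035, hg19 chr1:237205702-237997288, plus strand, a transcript of 16365 nucleotides) was lower in ctrl cells than in every line with a transgene. It stood at 16.8 and 16.1 CPM in SA2Q libraries, 16.1 and 14.9 CPM in SA2Q+gRNA libraries and 15.7 and 12.7 CPM in SA2+gRNA libraries. It stood at 12.04 and 14.03 CPM in SA1Q, 11.6 and 18.2 CPM in SA1Q+gRNA, and 18.08 and 18.15 CPM in SA1+gRNA libraries, against 7.12 and 6.91 CPM in ctrl libraries. The ctrl libraries lay close together and below all 12 others, while SA1+gRNA libraries lay above every SA2Q, SA2Q+gRNA, SA2+gRNA and SA1Q library, and the 2 SA1Q+gRNA libraries spanned nearly the whole range of the transgene lines. The 12 transgene libraries had a median of 15.9 CPM, 2.26 times the ctrl mean.

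As a log2 change against ctrl, RYR2 was at 1.23 in SA2Q cells. It was at 1.15 in SA2Q+gRNA cells and at 1.01 in SA2+gRNA cells. The SA1Q cells had 0.89, SA1Q+gRNA cells 1.10 and SA1+gRNA cells 1.37. In SA2Q against ctrl 0.0853% of all genes were called, and 8.86% had an unadjusted p under 0.05; since that contrast brought RYR2 into view, nothing is read from this. These 6 values share the same ctrl libraries and are given without a test. The SA2Q value, through which the gene came into view, was thus not the highest of the 6, and the SA1+gRNA value was above it. Without ctrl replicate 1 the SA2Q value was 1.25, and without ctrl replicate 2 it was 1.21. The sum of 10 cardiac muscle markers was 35.8 to 59.3 CPM in transgene libraries and 59.6 and 39.8 CPM in ctrl libraries. Of these 10 markers 3 averaged at least 1 CPM, the transcription factor gene NKX2-5 at 24.4 to 46.2 CPM, ACTN2 at 6.61 to 9.39 CPM and TNNI3, cardiac troponin I, at 2.39 to 4.397 CPM. The other 7 stayed below 1 CPM, with TNNT2, cardiac troponin T, at most 0.0731 CPM and MYL2, a ventricular myosin light chain, at most 0.0546 CPM in any library. The part of these markers in the RYR2 levels was not tested.

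CACNA1H (NM_021098, hg19 chr16:1203241-1271772, plus strand, 8088 nucleotides) was also lowest in ctrl cells, by a smaller margin. It stood at 18.2 and 19.6 CPM in SA2Q, 17.1 and 16.5 CPM in SA2Q+gRNA, and 17.9 and 15.9 CPM in SA2+gRNA libraries. It stood at 15.3 and 17.1 CPM in SA1Q, 17.6 and 16.8 CPM in SA1Q+gRNA, and 14.1 and 13.2 CPM in SA1+gRNA libraries, against 11.2 and 11.4 CPM in ctrl libraries. SA2Q libraries were the highest and SA1+gRNA libraries the lowest of the transgene lines, and no transgene library reached down to ctrl. The median of the 12 transgene libraries, 16.9 CPM, was 1.503 times the ctrl mean.

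The log2 changes of CACNA1H against ctrl were 0.75 in SA2Q cells and 0.58 in both SA2Q+gRNA and SA2+gRNA cells. The SA1Q cells had 0.52, SA1Q+gRNA cells 0.61 and SA1+gRNA cells 0.28, again with ctrl libraries in common and no test. The SA2Q value was 0.74 without ctrl replicate 1 and 0.69 without SA2Q replicate 2. TPSG1, a tryptase gene on the opposite strand that overlaps CACNA1H, was at 0.0991 to 0.447 CPM in transgene libraries and 0.0717 and 0.0379 CPM in ctrl libraries. Whether counting used strand is not given in the sources used here, so the CACNA1H count may hold fragments of TPSG1. The TPSG1 entry held at most 28 fragments in any library, against 468 to 1604 for CACNA1H.

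RYR2 and CACNA1H were the only 2 of the 10 members with both ctrl libraries below all 12 others, and earlier results had placed them there. Of 16418 genes tested, 2.93% showed this pattern, and 2.05% had both ctrl libraries above all others, among them none of the members. Across the 12 transgene libraries the log CPM of RYR2 and of CACNA1H had a Pearson's r of -0.18, given as a description over libraries that come in pairs.

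**Figure D2:**
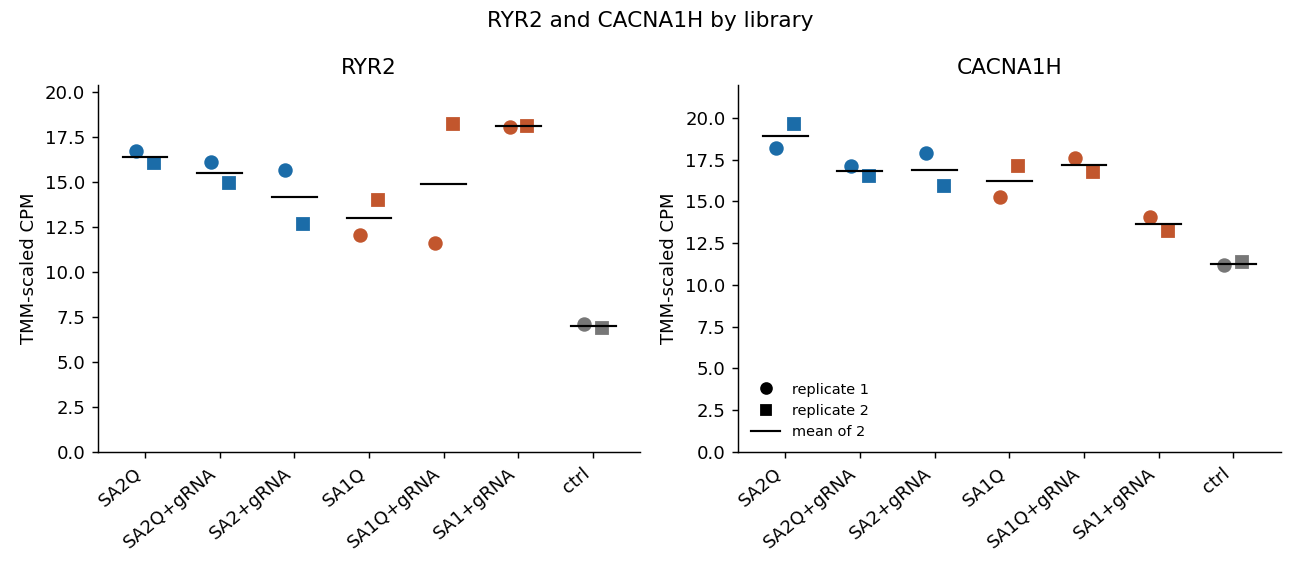
CPM of RYR2 and CACNA1H in each library by group, with transgene lines to the left and ctrl at the right; points are the 2 replicates and bars the group means. Both ctrl libraries lie below all 12 transgene libraries for both genes, at 7.12 and 6.91 CPM for RYR2 and 11.2 and 11.4 CPM for CACNA1H.

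The SA2 lines with guide were then compared with the SA1 lines with guide, which asks whether the channels differed by the deaminase domain of the transgene and which used neither ctrl nor SA2Q libraries. By edgeR's quasi-likelihood test with Benjamini-Hochberg adjustment over all genes tested, 0 of 10 members were called at an adjusted p under 0.05, where 0.0305% of all genes were. DESeq2 and limma also called 0, where DESeq2 called 0.379% of all genes and limma at most 0.0305%. At an unadjusted p under 0.05 there were 0 of 10 members, against 7.18% of all genes. RYR2 averaged 14.9 CPM in the SA2 libraries with guide and 16.5 CPM in the SA1 libraries with guide (4 each), a log2 change of -0.15 (SE 0.11, 95% interval -0.40 to 0.09, adjusted p = 0.827, edgeR). CACNA1H averaged 16.9 CPM in the SA2 libraries with guide and 15.4 CPM in the SA1 libraries with guide, a log2 change of 0.14 (SE 0.07, 95% interval -0.01 to 0.29, adjusted p = 0.722, edgeR). The groups overlapped for both genes.

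For the inositol trisphosphate receptors the same interval was -0.27 to 0.17 for ITPR1, -0.38 to 0.04 for ITPR2 and -0.11 to 0.21 for ITPR3, on the log2 scale. It was -0.54 to 0.05 for CACNA1C, -0.08 to 0.71 for CACNA1G and -0.10 to 0.61 for RYR3. RYR1 had -0.68 to 0.60, and CACNA1A, with few counts, -3.61 to 0.91. The median log2 change of the 10 members was -0.04, beside -0.00 over all genes tested.

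**Figure D3:**
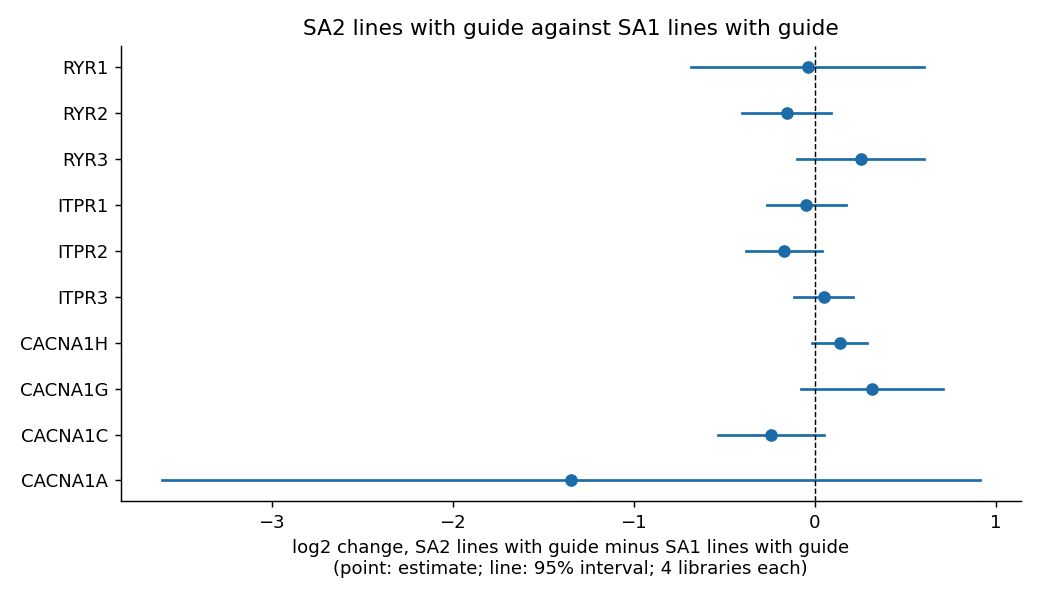
Log2 change with its 95% interval for each member in SA2 lines with guide against SA1 lines with guide (4 libraries each, edgeR). All 10 intervals include 0, and CACNA1A has the widest, from -3.61 to 0.91.

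Among the lines without the Q change the groups did not overlap for either gene, nor for RYR3, ITPR2, ITPR3 and CACNA1G. The share of all genes without overlap was not counted, so nothing is read from this. RYR2 was at 15.7 and 12.7 CPM in SA2+gRNA libraries, against 18.08 and 18.15 CPM in SA1+gRNA libraries (log2 change -0.36, SE 0.16, unadjusted p = 0.0432, adjusted p = 0.971, edgeR). CACNA1H was at 17.9 and 15.9 CPM in SA2+gRNA libraries, against 14.1 and 13.2 CPM in SA1+gRNA libraries (log2 change 0.31, SE 0.10, unadjusted p = 0.00792, adjusted p = 0.913, edgeR). Neither was called, and 0 of 10 members were called where 0.0122% of all genes were, while 2 of 10 had an unadjusted p under 0.05 against 4.79% of all genes. RYR2 and CACNA1H differed in opposite directions here.

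Among the lines with the Q change the groups overlapped for both genes. RYR2 averaged 15.5 CPM in SA2Q+gRNA and 14.9 CPM in SA1Q+gRNA libraries (log2 change 0.05, 95% interval -0.30 to 0.40, adjusted p = 0.935, edgeR). Without SA1Q+gRNA replicate 1, a library that stood apart, the RYR2 change was -0.23. CACNA1H averaged 16.8 CPM in SA2Q+gRNA and 17.2 CPM in SA1Q+gRNA libraries (log2 change -0.03, 95% interval -0.24 to 0.19, adjusted p = 0.936, edgeR), and it was 0.00 without that library. Members called numbered 0 of 10, where 0.0975% of all genes were called. At an unadjusted p under 0.05 there was 1 of 10, CACNA1A, against 11.9% of all genes. The difference between the Q changes of the SA2 and SA1 lines was tested as an interaction in edgeR. It was -0.34 for CACNA1H (unadjusted p = 0.0316, adjusted p = 0.485) and 0.41 for RYR2 (adjusted p = 0.589) on the log2 scale, with 0 of 10 members called and 1 of 10 at an unadjusted p under 0.05, against 0 genes called and 9.39% of all genes at an unadjusted p under 0.05.

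The Q change itself was compared within each domain, with guide. For SA2Q+gRNA against SA2+gRNA, RYR2 had a log2 change of 0.13 (SE 0.16) and CACNA1H of -0.01 (SE 0.10), with 0 of 10 members called and 0.0122% of all genes called. At an unadjusted p under 0.05 there were 0 of 10 members, against 7.86% of all genes. For SA1Q+gRNA against SA1+gRNA, CACNA1H averaged 17.2 CPM in SA1Q+gRNA and 13.7 CPM in SA1+gRNA libraries (log2 change 0.33, SE 0.10, unadjusted p = 0.00509, adjusted p = 0.123, edgeR). RYR2 had a log2 change of -0.27 in that comparison (SE 0.16, adjusted p = 0.400, edgeR), and of 0.01 without SA1Q+gRNA replicate 1. There 0 of 10 members were called and 0.962% of all genes were, and 3 of 10 members had an unadjusted p under 0.05 against 17.4% of all genes. Without SA1Q+gRNA replicate 2, which leaves only the library that stood apart in that group, 5 members were called (RYR1, RYR2, ITPR1, ITPR2 and CACNA1A), where 12.4% of all genes were.

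With a guide RNA against without it, 0 members were called. For SA1Q+gRNA against SA1Q, RYR2 averaged 14.9 CPM with guide and 13.0 CPM without (log2 change 0.21, 95% interval -0.15 to 0.56, adjusted p = 0.578, edgeR). CACNA1H averaged 17.2 CPM with guide and 16.2 CPM without (log2 change 0.08, 95% interval -0.13 to 0.30, adjusted p = 0.715, edgeR). For SA2Q+gRNA against SA2Q, which holds libraries that brought these genes into view, RYR2 had a log2 change of -0.08 and CACNA1H of -0.17, as a description. The share of all genes called was 0% in both guide comparisons, with 0 of 10 and 0 of 8 members called by edgeR, DESeq2 and limma. At an unadjusted p under 0.05 there was 1 member in each, CACNA1A in the SA1Q line and RYR3 in the SA2Q line, against 12.2% and 1.77% of all genes.

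Against ctrl, the other 8 members were tested in 5 groups and 0 were called in any of them by edgeR, DESeq2 or limma. The share of all genes called by edgeR was 0.067% for SA2Q+gRNA, 0.104% for SA2+gRNA, 2.8% for SA1Q, 1.04% for SA1Q+gRNA and 0.0426% for SA1+gRNA. It was highest for SA1Q with DESeq2 and limma too, at 7.2% and at most 3.39%. At an unadjusted p under 0.05 there were 2 of 8 members for SA2Q+gRNA, 0 for SA2+gRNA and 1 each for SA1Q, SA1Q+gRNA and SA1+gRNA. The same share of all genes was 10.1% for SA2Q+gRNA, 10.2% for SA2+gRNA, 21.2% for SA1Q, 13.9% for SA1Q+gRNA and 10.7% for SA1+gRNA. Over all 12 comparisons with tests, 0 of 108 pairs of a member and a comparison were called, and 13 (12%) had an unadjusted p under 0.05, against 10.8% of all genes in the same comparisons. Of these 13, 6 were CACNA1A in comparisons that hold a library that stood apart.

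Of the other release channels, ITPR3 (NM_002224, hg19 chr6:33589156-33664348, plus strand) ranged from 109.6 to 153 CPM over the 14 libraries. It was at 119.9 and 123 CPM in SA2Q+gRNA libraries, against 135 and 153 CPM in ctrl libraries (log2 change -0.24, SE 0.11, unadjusted p = 0.0393, adjusted p = 0.469, edgeR). Without both libraries that stood apart, ITPR3 was called lower in SA2Q+gRNA than in ctrl. That fit leaves ctrl with replicate 2 alone, the highest of the 14 libraries at 153 CPM. It also called a larger share of all genes than the fit with all libraries, so nothing is read from the call. ITPR1 (NM_001168272, hg19 chr3:4535032-4889524, plus strand) ranged from 25.4 to 37.1 CPM and ITPR2 (NM_002223, hg19 chr12:26488285-26986131, minus strand) from 24.2 to 36.4 CPM. Their log2 changes over the 12 comparisons lay between -0.14 and 0.04 for ITPR1 and between -0.25 and 0.21 for ITPR2.

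RYR3 (NM_001036, hg19 chr15:33603177-34158303, plus strand) was scarce and ranged from 0.783 to 1.52 CPM. It was at 1.39 and 1.09 CPM in SA2Q+gRNA libraries, against 0.899 and 0.815 CPM in SA2Q libraries (log2 change 0.54, SE 0.24, unadjusted p = 0.0413, adjusted p = 0.9997, edgeR). It was also higher in SA1Q+gRNA than in SA1+gRNA libraries, at 1.05 and 1.35 CPM against 0.783 and 0.892 CPM, and was not called (adjusted p = 0.271, edgeR). The difference between the guide changes of the SA2Q and SA1Q lines was 0.78 for RYR3 (unadjusted p = 0.0353, adjusted p = 0.713, edgeR interaction).

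Among the other voltage-gated channels, CACNA1G (NM_018896, hg19 chr17:48638429-48704832, plus strand) ranged from 1.33 to 2.23 CPM, with log2 changes between -0.18 and 0.35 over the 12 comparisons. CACNA1C (NM_199460, hg19 chr12:2162416-2807115, plus strand) ranged from 2.73 to 4.96 CPM and averaged highest in the SA1Q line. It was at 3.89 and 4.18 CPM in SA1Q libraries and 3.19 and 4.96 CPM in SA1Q+gRNA libraries, against 2.75 and 3.37 CPM in ctrl libraries. The SA1Q+gRNA difference from ctrl was 0.43 on the log2 scale (SE 0.20, adjusted p = 0.356, edgeR). CACNA1G has 33 deposited transcripts and CACNA1C 23, which share fragments. Their mean FPM ran only from 1.58 to 1.64 for CACNA1G and from 3.14 to 3.16 for CACNA1C, so these levels cannot be assigned to 1 transcript. As for CACNA1H, the counts may hold fragments of overlapping genes on the opposite strand. CACNA1C-AS1 held at most 30 fragments in any library, against 115 to 404 for CACNA1C. CACNA1G-AS1 held at most 7, against 62 to 172 for CACNA1G.

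RYR1 and CACNA1A were highest in the 2 libraries that stood apart and not in any one group. RYR1 (NM_000540, hg19 chr19:38924340-39078204, plus strand) was at 2.16 CPM in SA1Q+gRNA replicate 1 and 2.08 CPM in ctrl replicate 1. In the other 12 libraries it ran from 0.765 to 1.56 CPM with a median of 0.933 CPM. CACNA1A (NM_023035, hg19 chr19:13317256-13617274, minus strand) was at 1.85 CPM in SA1Q+gRNA replicate 1 and 1.93 CPM in ctrl replicate 1. In the other 12 libraries it ran from 0.0189 to 0.219 CPM, and the mean of the 2 libraries was 18.2 times their median of 0.104 CPM. These levels come from 72 and 81 counts, against 1 to 14 counts in the other 12.

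This pattern held for 2 of 10 members, against 10.1% of all genes tested, and 0 members lay lowest in the 2 libraries, against 8.05% of all genes. Each of ctrl and SA1Q+gRNA holds 1 such library. In SA1Q against ctrl the log2 change of CACNA1A was -3.22 (SE 1.42, adjusted p = 0.210, edgeR). Without ctrl replicate 1 it was 2.27, where the ctrl value rests on 1 count. In SA1Q+gRNA against SA1Q it was 3.18 (SE 1.43, adjusted p = 0.398, edgeR), and -0.01 without SA1Q+gRNA replicate 1. Without both libraries that stood apart it was -0.20 in SA1Q+gRNA against SA1+gRNA, where it was 2.99 with them, and 0.35 in SA2Q+gRNA against SA1Q+gRNA, where it was -2.84 with them. Against ctrl it was 2.61 in SA2Q+gRNA, 2.60 in SA2+gRNA and 2.46 in SA1+gRNA without them, where it was -2.88, -2.89 and -3.03 with them, and the ctrl value again rests on 1 count.

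The summed skeletal and cardiac muscle markers were highest in these 2 libraries, though not every marker was. The sum of 10 skeletal muscle markers was 36.2 CPM in SA1Q+gRNA replicate 1 and 39.4 CPM in ctrl replicate 1, and at most 22.4 CPM in the other 12. Most of that was TTN, the giant sarcomere protein titin, at 26.7 and 29.9 CPM against at most 15.6 CPM elsewhere. MYH1, MYH2, MYH3, ACTA1 and TNNT3 were also higher in both of these libraries than in any other. MYH2 was at 1.44 and 1.15 CPM, against at most 0.203 CPM, and MYH1 at 0.437 and 0.454 CPM, against at most 0.109 CPM. TNNI2 was highest in SA1Q+gRNA replicate 1 only. MYOG, which drives muscle differentiation, was at 0 CPM in both of these libraries and at most 0.0226 CPM elsewhere. MYOD1, also a muscle regulator, was at 0.0772 and 0.287 CPM, against up to 0.341 CPM elsewhere, and the creatine kinase gene CKM at 0.0772 and 0.0717 CPM, against up to 0.201 CPM. The cardiac sum was 59.3 and 59.6 CPM, against at most 48.2 CPM in the other 12. Within it NKX2-5 was at 46.2 and 45.4 CPM, against at most 36.3 CPM elsewhere. MYH6, MYH7 and MYBPC3, all below 1 CPM, were also higher in both of these libraries than in any other. TNNI3, ACTN2, NPPA, TNNT2, MYL2 and MYL7 were not. The sum of 6 smooth muscle markers was 68.3 CPM in SA1Q+gRNA replicate 1 and 54.1 CPM in ctrl replicate 1, against 46.4 to 58.8 CPM in the other 12. The sum of 10 neuron markers was 65.1 CPM in SA1Q+gRNA replicate 1 and 51.7 CPM in ctrl replicate 1, against 42.1 to 60.4 CPM in the other 12, so that SA1Q+gRNA replicate 1 lay above them and ctrl replicate 1 among them. The part of other cell types in the RYR1 and CACNA1A levels was not tested.

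**Figure D4:**
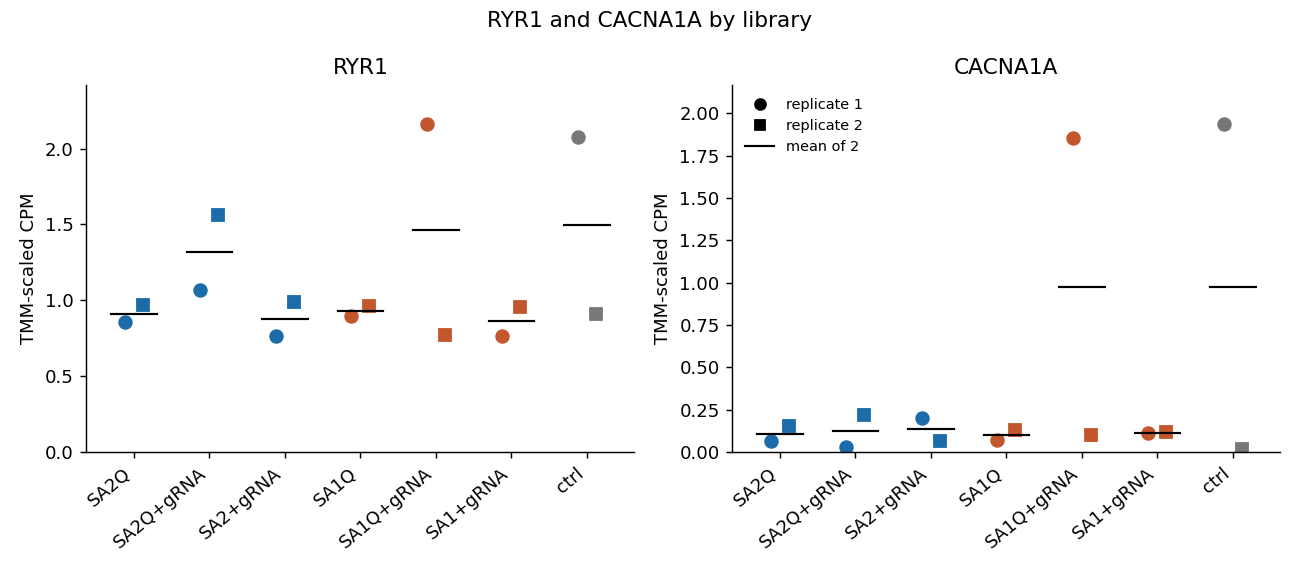
CPM of RYR1 and CACNA1A in each library by group, with transgene lines to the left and ctrl at the right. SA1Q+gRNA replicate 1 and ctrl replicate 1 hold 2.16 and 2.08 CPM of RYR1 and 1.85 and 1.93 CPM of CACNA1A, above the other 12 libraries for both genes.

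The genes that work with these channels were listed in 8 groups of 129 genes in all, of which 112 passed the filter. The groups are other voltage-gated alpha1 subunits, auxiliary subunits, partners of release channels, calcium pumps and exchangers, store-operated calcium entry, the mitochondrial uniporter, phospholipase C enzymes, and calcium-dependent kinases with calcineurin. In SA2 lines with guide against SA1 lines with guide, 0 of 112 were called by edgeR, DESeq2 or limma. Of all genes edgeR called 0.0305%, DESeq2 0.379% and limma at most 0.0305%. At an unadjusted p under 0.05 there were 10 of 112 (8.93%), against 7.18% of all genes.

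In SA1Q against ctrl, 2 list genes rose and 1 fell by edgeR (2.68% of 112, against 2.8% of all genes). DESeq2, counted over all 129 list genes, called 8, against 7.2% of the 14634 genes that its own filter kept. With limma 3 of 112 were called, against 3.39% of all genes on FPKM + 0.1 and 3.24% on FPKM + 1. At an unadjusted p under 0.05 there were 37 of 112 (33%), against 21.2% of all genes. TRPC1, a cation channel linked to store-operated entry, was at 13.2 ± 1.28 CPM in SA1Q and 8.89 ± 0.363 CPM in ctrl (SD, n = 2 each; log2 change 0.57, SE 0.12, adjusted p = 0.0257, edgeR). PPP3CC, a catalytic subunit of calcineurin, was at 27.3 ± 2.71 CPM in SA1Q and 20.1 ± 0.0899 CPM in ctrl (log2 change 0.44, SE 0.09, adjusted p = 0.0252, edgeR). NFATC4, a transcription factor that calcineurin activates, was at 14.3 ± 0.137 CPM in SA1Q and 22.2 ± 2.71 CPM in ctrl (log2 change -0.63, SE 0.13, adjusted p = 0.0204, edgeR). Leaving out single libraries ended each of these calls, for TRPC1 with any of the 4 libraries, for PPP3CC with 3 of them and for NFATC4 with 3 of them.

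NFATC4 was also lower in SA1Q+gRNA, with 12.5 ± 1.17 CPM against the same ctrl libraries (log2 change -0.82, SE 0.13, adjusted p = 0.00688, edgeR). It was the 1 list gene that edgeR called there (0.893% of 112, against 1.04% of all genes). DESeq2 called 4 list genes there, against 3.23% of the genes it kept, and limma 1, against at most 1.39% of all genes. In SA1Q+gRNA against SA1+gRNA 1 list gene rose by edgeR (0.893% of 112, against 0.962% of all genes). It was JPH3, a junctophilin that ties the plasma membrane to the endoplasmic reticulum near calcium channels. JPH3 was at 29.5 ± 0.719 CPM in SA1Q+gRNA and 18.4 ± 2.50 CPM in SA1+gRNA (log2 change 0.69, SE 0.13, adjusted p = 0.0272, edgeR). That call ended without SA1Q+gRNA replicate 1 and without either SA1+gRNA library. DESeq2 called 3 list genes in this comparison, against 4.05% of the genes it kept. Limma called 1 on FPKM + 0.1, against 1.16% of all genes, and 0 on FPKM + 1, against 0.828%. In each of the other 10 comparisons edgeR called 0 list genes, against at most 0.104% of all genes, and limma 0, against at most 0.128%. DESeq2 called 0 to 2 of the 129 list genes, against 0% to 1.1% of the genes it kept. At an unadjusted p under 0.05 these 10 comparisons had between 1.79% of list genes, in SA2Q+gRNA against SA2Q (1.77% of all genes), and 14.3%, in SA2Q+gRNA against ctrl (10.1% of all genes).

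The genes whose level was most like that of RYR2 over the 14 libraries, of 13670 genes searched, were FAM149A (Pearson's r 0.92), ERC1, a scaffold of secretory sites (0.89), DUSP4, a phosphatase of MAP kinases (0.88), TPM1, a tropomyosin (0.85), and SARAF, which slows store-operated calcium entry (0.85). Each was lower in both ctrl libraries than in any other, as RYR2 was and as 2.93% of all genes tested were. The choice by likeness to RYR2 over libraries that include ctrl favours this, so nothing is read from it. SARAF ran from 164 to 192 CPM in the 12 transgene libraries, against 144 and 147 CPM in ctrl libraries. Over the 12 libraries without ctrl the likeness to RYR2 fell to between 0.28 (TPM1) and 0.58 (ERC1), so much of it lay in the ctrl libraries.

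For CACNA1H the most alike genes were NTPCR, a nucleoside triphosphatase (0.93), PCDH1, a protocadherin (0.90), CORO1C, an actin-binding coronin (0.89), NOS2, the inducible nitric oxide synthase (0.89), and HAGH, a glyoxalase (0.88). Their likeness over the 12 libraries without ctrl was 0.67 (CORO1C) to 0.80 (NTPCR). NOS2 ran from 6.77 to 10.1 CPM in transgene libraries, against 5.80 and 5.93 CPM in ctrl libraries. These correlations describe which genes shared the order of the libraries, which come in pairs and share depth and line.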

How the data were processed

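Polyadenylated RNA was sequenced from 14 libraries of 7 groups. The submitters' processing notes name STAR 2.4.2a, Trim Galore and build hg19; neither the counting tool nor its use of strand is stated there. The deposited count column holds whole fragment counts for 46830 RefSeq transcript entries, and the FPM and FPKM columns hold, per the file headers, the authors' scaling of them by library total and transcript size. FPM served to choose 1 transcript per gene, and FPKM to order genes and in alternatives.

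Accessions were named with RefSeq and GENCODE tables (98.6%). The 887 entries without a name held 0.81% of counts and, like 2309 entries under 200 nucleotides, stayed out. Counts of 16418 genes that passed filterByExpr (minimum count 10) were fitted with edgeR 4.0.16 (TMM, quasi-likelihood, two-sided) in R 4.3.3 over all 14 libraries without a covariate. With 7 residual degrees of freedom the common coefficient of biological variation was 8.7%. P-values were adjusted by Benjamini-Hochberg within each of 13 comparisons, with 0.05 as threshold. Scripts were tested on simulated data.

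Alternatives were DESeq2 1.42.0, limma 3.58.1 on log2(FPKM + 0.1) and log2(FPKM + 1), other size factors, no filter, the longest transcript, a length offset, fewer libraries and a replicate block. DESeq2 applied its own filter, which kept 13788 to 21829 genes by comparison, and its shares of all genes are over these. It gave CACNA1A no adjusted p in SA1Q+gRNA against SA1+gRNA. A gene without one was counted as not called. Members and lists were chosen with earlier results of these data known. All members are named. List genes are named where called, and the 5 genes most like RYR2 and CACNA1H by Pearson's r of log CPM, at a mean of at least 1 CPM, are named too. Sequences are from RefSeq on GRCh38.p14. The level of 1 list gene is not reported here.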

Additional observations from a re-analysis of the deposited data

How the results depend on the processing

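For SA2Q against ctrl the RYR2 log2 change was 1.19 with a length offset, 1.06 with limma on FPKM + 0.1 and 0.474 on FPKM + 1, and the CACNA1H change was 0.473 on FPKM + 1; a larger pseudocount lowers the change of scarce genes by construction. Leaving out 1 library gave 1.20 to 1.25 for RYR2 and 0.687 to 0.801 for CACNA1H. Without both libraries that stood apart, ITPR3 was called in SA2Q+gRNA against ctrl, where no member was with them. That fit leaves ctrl with replicate 2 alone and called a larger share of all genes than the fit with all libraries, so nothing is read from the call. Over single libraries left out, members called ran from 0 to 5 in SA1Q+gRNA against SA1+gRNA, 0 to 2 in SA1Q+gRNA against SA1Q (ITPR2 and CACNA1A without SA1Q+gRNA replicate 2) and 0 to 1 in SA1Q against ctrl (CACNA1A without ctrl replicate 2). In the settings with 5, 2 and 1 members called, 12.4%, 12.6% and 4.88% of all genes were called.

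Changes that were not called turned in sign as follows, and the cause was not tested. In SA2 against SA1 lines with guide, without both libraries that stood apart, RYR1 was at 0.393, ITPR3 at -0.0314 and CACNA1A at 0.244, and with a length offset RYR1 was at 0.0456 and ITPR1 at 0.0167. Without both libraries RYR2 was at -0.23 and CACNA1H at 0.00342 in SA2Q+gRNA against SA1Q+gRNA, RYR2 at 0.00805 and CACNA1A at -0.197 in SA1Q+gRNA against SA1+gRNA, and CACNA1A at -0.00736 in SA1Q+gRNA against SA1Q and 2.27 in SA1Q against ctrl. With a length offset CACNA1H was at 0.0313 in SA2Q+gRNA against SA2+gRNA and RYR2 at 0.0803 in SA2Q+gRNA against SA2Q.

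Single libraries left out gave these ranges. In SA2 against SA1 lines with guide they were -0.346 to 0.393 for RYR1, -0.295 to 0.0328 for RYR2, -0.166 to 0.102 for ITPR1, -0.0314 to 0.143 for ITPR3 and -2.31 to 0.248 for CACNA1A. In SA2Q+gRNA against SA1Q+gRNA they were -0.231 to 0.426 for RYR2 and -0.0582 to 0.00303 for CACNA1H. In SA2Q+gRNA against SA2+gRNA they were -0.0135 to 0.293 for RYR2 and -0.0892 to 0.0767 for CACNA1H. In SA1Q+gRNA against SA1+gRNA they were -0.65 to 0.00838 for RYR2 and -0.196 to 4.0 for CACNA1A. In SA1Q+gRNA against SA1Q they were -0.178 to 0.484 for RYR2, -0.000849 to 0.157 for CACNA1H and -0.0089 to 4.18 for CACNA1A. In SA1Q against ctrl they were -4.25 to 2.27 for CACNA1A. Where 1 library of a group was left, its spread was assumed to be that of the other groups.

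Replicate numbers are shared by all groups, but with 2 numbers they could not be shown to pair libraries: the differences between replicates correlated between groups with r from -0.14 to 0.44 over 21 pairs of groups. With the replicate block RYR2 was at -0.150 and CACNA1H at 0.139 in SA2 against SA1 lines with guide, RYR2 at 1.23 in SA2Q against ctrl, and members called stayed at 0.

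With only the libraries compared, JPH3, NFATC4, PPP3CC and TRPC1 missed the threshold. Counts over all genes moved with the setting: SA2Q against ctrl called 14 genes with edgeR, 89 with DESeq2 and 569 without both libraries that stood apart. With 2 libraries per group, and 1 to 14 counts of CACNA1A in most libraries, small changes of scarce members were not detectable.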

Other observations

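The rest of the calcium machinery varied widely in level in these cells, and the most abundant genes of each list by mean FPKM over the 14 libraries are given here as a description. Store release is opposed by ATP2A2, the pump that refills the endoplasmic reticulum, at 54.5 ± 3.03 FPKM (SD over 14 libraries), in a list of pumps, leak channels and exchangers led by TMBIM6, a calcium leak protein, at 298 ± 21.4 FPKM. Of the 9 genes of the mitochondrial uniporter list, 9 averaged at least 1 FPKM, with the outer membrane channel VDAC1 highest at 166 ± 12.5 FPKM. In store-operated entry SARAF led with 73.9 ± 5.67 FPKM, followed by the endoplasmic reticulum calcium sensor STIM1 at 11.5 ± 0.428 FPKM. Partners of release channels were led by a calmodulin gene, CALM2, at 210.1 ± 15.4 FPKM and by the immunophilin gene FKBP1A at 170.3 ± 9.87 FPKM.

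The phospholipase C list, whose enzymes make inositol trisphosphate, was led by PLCG1 at 26.1 ± 1.62 FPKM and PLCD3 at 11.8 ± 1.10 FPKM. In the list of kinases and calcineurin CAMK1 stood at 52.7 ± 3.12 FPKM and PPP3R1 at 21.7 ± 1.84 FPKM. Of 17 pumps, leak channels and exchangers 8 averaged at least 1 FPKM. Of 6 alpha1 subunits other than the members, 0 averaged 1 FPKM, with CACNA1B highest at 0.347 ± 0.0480 FPKM and CACNA1D next at 0.192 ± 0.0364 FPKM. Their auxiliary subunits reached higher levels, with CACNA2D1 at 4.15 ± 0.524 FPKM and CACNB3 at 3.08 ± 0.384 FPKM, and 6 of 16 averaged at least 1 FPKM.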
